A study of Homo sapiens with 12 samples.

Results

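BTN2A1, BTN2A2, BTN3A1, BTN3A2 and BTN3A3 are 5 human butyrophilins, membrane proteins of the immunoglobulin superfamily whose genes lie together on chromosome 6. They are 5 of the 21433 gene symbols on the array and were chosen by symbol: 14 of the 54675 probe sets named at least 1 of them, 4 for BTN2A1, 3 for BTN2A2, 2 for BTN3A1, 3 for BTN3A2 and 3 for BTN3A3. One probe set, 204820_s_at, named both BTN3A2 and BTN3A3 and is counted under each. A total of 11 were bright enough to be tested: 6 for the BTN3A genes, 2 for BTN2A2 and 3 for BTN2A1. The family was proposed with results of these arrays in view, and which value prompted the choice is not recorded, so the adjusted p-values below give the place of each probe set in a fit across the array and are not independent evidence.

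Butyrophilins of this group are best known as the tumour cell side of recognition by the main gamma-delta T cell subset of human blood. BTN3A1 binds phosphoantigens, small pyrophosphates of the mevalonate pathway or of microbes, with its intracellular domain, and BTN2A1 then engages the T cell receptor from outside. BTN3A2 lacks that intracellular domain and BTN3A3 has a form of it that binds phosphoantigens poorly, while BTN2A2 is known from mouse work as an inhibitor of T cell activation. BTN3A genes are also known to be induced by interferon-gamma and by NLRC5, an activator of MHC class I genes that acts through X box and CCAAT elements.

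The study set 786-O, a renal carcinoma line that lacks functional VHL, beside PC3, a prostate carcinoma line. Co-cultured 786-O cells, 786-O cells alone, co-cultured PC3 cells and PC3 cells alone were each represented by 3 arrays. In co-culture, 30000 cancer cells were seeded in the lower chamber of a transwell plate 6 h before 10000 primary myoblasts, taken from the limbs of 5-day-old C57BL/6-Tg GFP mice, were placed in the upper chamber, and RNA was taken 12 h later. The labels also call this a 1:1 co-culture. Media differed by line, RPMI1640 for 786-O and F-12K for PC3. No label says that the 3 repeats of a group were separate cultures, so p-values measure the spread between these arrays, which may be technical.

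Median signals were 5.46 to 5.73, a level of dim probe sets that says little about the bright ones. A signal of at least 32 was reached by 39.7 to 40.2% of probe sets on each array. Replicate 2 of co-cultured 786-O stood apart. Its ratio of 3' to 5' signal for ACTB was 7.22, against 3.08 to 4.24 on the other 11 arrays. The median deviation of the tested butyrophilin probe sets from the rest of the group was 0.54 log2 on this array. On the other 11 arrays it was -0.28 to 0.19. Every tested butyrophilin probe set but 209846_s_at had its highest signal in co-cultured 786-O on this array. The 786-O responses are therefore also given without it. The 786-O arrays carried the renal factors PAX8 and PAX2 but had CUBN and LRP2 near the floor, and the PC3 arrays carried HOXB13 and EPCAM while KLK3, CDH1 and KRT5 were near the floor. All 11 probe sets of skeletal myoblast markers and all 13 of leukocyte markers stayed under a signal of 16 on all 12 arrays. The summed myoblast signal was 50.3 to 52.5 in co-cultured 786-O against 50.1 to 52.4 in 786-O alone, and 51.8 to 52.7 in co-cultured PC3 against 50.5 to 55.1 in PC3 alone. These are human probe sets, so mouse transcripts would count only where they match.

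The promoters of 3 of the 5 genes were in the RefSeq table for GRCh38.p14, in 4 windows of 300 bases, each holding 250 bases before an annotated transcription start and 50 after it. They are shown because BTN3A2, BTN3A3 and BTN2A1 share a pair of motifs at similar spacing. Capitals mark the X box core, searched as CCNAGCAAC, and the CCAAT box, both on either strand.
BTN3A2, first start, chr6:26364948-26365247, plus strand: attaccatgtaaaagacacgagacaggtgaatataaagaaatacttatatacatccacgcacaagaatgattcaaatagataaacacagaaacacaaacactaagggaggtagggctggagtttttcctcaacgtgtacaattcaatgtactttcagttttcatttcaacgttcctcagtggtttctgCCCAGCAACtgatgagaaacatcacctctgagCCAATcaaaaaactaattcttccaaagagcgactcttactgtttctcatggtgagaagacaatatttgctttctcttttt
BTN3A2, second start, chr6:26367928-26368227, plus strand: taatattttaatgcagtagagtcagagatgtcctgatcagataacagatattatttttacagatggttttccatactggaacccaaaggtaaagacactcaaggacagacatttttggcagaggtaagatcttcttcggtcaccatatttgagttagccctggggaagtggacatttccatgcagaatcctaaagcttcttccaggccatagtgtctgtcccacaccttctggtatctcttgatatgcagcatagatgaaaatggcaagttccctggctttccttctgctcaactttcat
BTN3A3, chr6:26440254-26440553, plus strand: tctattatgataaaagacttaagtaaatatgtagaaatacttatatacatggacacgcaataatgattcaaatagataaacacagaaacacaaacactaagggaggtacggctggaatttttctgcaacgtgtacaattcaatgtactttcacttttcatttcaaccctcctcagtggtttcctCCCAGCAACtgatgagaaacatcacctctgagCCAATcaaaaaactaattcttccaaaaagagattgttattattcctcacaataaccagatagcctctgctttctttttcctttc
BTN2A1, chr6:26457705-26458004, plus strand: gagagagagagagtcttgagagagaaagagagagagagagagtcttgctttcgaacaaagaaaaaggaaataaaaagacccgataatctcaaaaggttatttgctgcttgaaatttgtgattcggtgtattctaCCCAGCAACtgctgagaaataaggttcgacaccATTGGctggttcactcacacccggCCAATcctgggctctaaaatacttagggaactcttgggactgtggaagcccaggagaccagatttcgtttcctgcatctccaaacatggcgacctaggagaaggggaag

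The X box core was found in the first BTN3A2 window at -62 to -54 from the start, in the BTN3A3 window at -66 to -58 and in the BTN2A1 window at -116 to -108. A CCAAT box followed after 23 bases in BTN3A2, 23 in BTN3A3 and 24 in BTN2A1, where it lay on the minus strand (ATTGG) and a second CCAAT box stood nearer to the start. The second BTN3A2 window held neither. Among all 35116 windows of the table the X box core occurred in 1.76% and CCAAT in 34.6%, and an X box core with a CCAAT box within 50 bases downstream in 76, or 0.216%. Of these 2 motifs no positions overlapped in the windows shown.

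The interferon-stimulated response element, searched as GAAA, any 2 bases and GAAA on either strand and found in 3.57% of windows, matched in BTN3A3 alone, on the minus strand 36 to 45 bases after the start. The gamma-activated site, searched as TTCNNNGAA, which reads the same on both strands, and found in 7.66% of windows, matched in none of the 4. The first BTN3A2 window and the BTN3A3 window were 82.3% identical, with a longest shared run of 58 bases, whereas the first BTN3A2 window and the BTN2A1 window were 43.5% identical. A match describes the letters only.

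**Figure D1:**
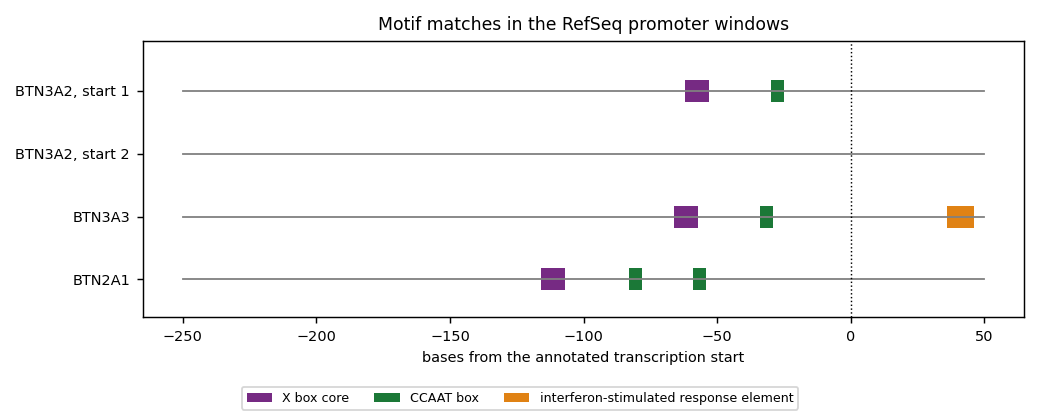
Positions of motif matches in the 4 RefSeq promoter windows, in bases from the annotated transcription start (dotted line); purple marks the X box core, green the CCAAT box and orange the interferon-stimulated response element. The X box core and the CCAAT box after it stand 23 to 24 bases apart in 3 windows, and the second BTN3A2 window is empty.

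The BTN3A genes were the members that rose under myoblasts in both lines. In 786-O, 5 of their 6 probe sets passed the test and all 5 were higher in co-culture, with log2 fold changes of 0.52 to 0.77; in PC3 all 6 passed and were higher, with 0.79 to 1.24. None of the 5 BTN2A probe sets passed in either line. Across the array, 8.07% of the 27306 probe sets tested passed in 786-O (4.87% as higher and 3.2% as lower) and 3.97% in PC3 (1.98% as higher and 2% as lower). The median log2 fold change of the 6 BTN3A probe sets was 0.66 in 786-O and 0.92 in PC3, against -0.01 over all probe sets tested in each line. In bulk RNA a change in the number of expressing cells and a change per cell cannot be told apart.

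BTN3A1, the phosphoantigen sensor, was read by 209770_at. Its signals were 752, 928 and 839 in co-cultured 786-O, against 544, 496 and 500 in 786-O alone. In PC3 they were 915, 724 and 966 in co-culture, against 562, 480 and 359 alone. All 6 co-culture arrays lay above all 6 arrays of cells grown alone. The log2 fold change was 0.71 ± 0.16 in 786-O (SE, n = 3 per group, limma adjusted p = 0.0288) and 0.91 ± 0.16 in PC3 (adjusted p = 0.00985). The 2 lines overlapped within each condition, with log2 differences, 786-O minus PC3, of -0.04 ± 0.16 in co-culture (adjusted p = 0.825) and 0.16 ± 0.16 alone (adjusted p = 0.413).

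BTN3A2, the member without the phosphoantigen-binding domain, had 2 probe sets of its own, and they differed in 786-O. The first, 212613_at, gave signals of 580, 825 and 551 in co-cultured 786-O, against 447, 363 and 398 in 786-O alone, and of 396, 336 and 391 in co-cultured PC3, against 150, 144 and 181 in PC3 alone. Co-culture lay above alone without overlap in both lines, and co-cultured PC3 cells overlapped with 786-O cells grown alone. The log2 fold change was 0.68 ± 0.17 in 786-O (SE, n = 3 per group, limma adjusted p = 0.0348) and 1.24 ± 0.17 in PC3 (adjusted p = 0.00135).

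The second BTN3A2 probe set, 209846_s_at, gave signals of 297, 203 and 344 in co-cultured 786-O, against 299, 275 and 245 in 786-O alone. In PC3 they were 208, 237 and 185 in co-culture, against 87.5, 83.2 and 95.1 alone. The 786-O groups overlapped, while every co-cultured PC3 array exceeded every PC3 array grown alone. The log2 fold change was 0.01 ± 0.19 in 786-O (SE, n = 3 per group, adjusted p = 0.983, 95% interval -0.40 to 0.43) and 1.24 ± 0.19 in PC3 (adjusted p = 0.0032). On the array with the high ACTB ratio, replicate 2 of co-cultured 786-O, 209846_s_at was the lowest of its group and 212613_at the highest. The alignment given in the files for 212613_at begins 109 bases after the end of that for 209846_s_at and reaches the 3' end of the aligned gene. Without that array the 786-O log2 fold change of 209846_s_at was 0.23 ± 0.14 (adjusted p = 0.362) and that of 212613_at 0.49 ± 0.14 (adjusted p = 0.0487); the part of RNA quality in the disagreement was not tested.

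BTN3A3, the third member of the subfamily, was read by 2 probe sets of its own. Signals of 204821_at were 419, 665 and 496 in co-cultured 786-O, against 316, 250 and 357 in 786-O alone, and 848, 928 and 959 in co-cultured PC3, against 506, 476 and 604 in PC3 alone. Those of 38241_at were 459, 686 and 590 in co-cultured 786-O, against 354, 349 and 387 in 786-O alone, and 870, 1032 and 917 in co-cultured PC3, against 539, 431 and 519 in PC3 alone. In both probe sets the highest of the 4 groups was co-cultured PC3 and the lowest 786-O alone, the order of the second and the third differed, and co-culture did not overlap with alone in either line. For 204821_at the log2 fold change was 0.77 ± 0.18 in 786-O (SE, n = 3 per group, adjusted p = 0.0292) and 0.79 ± 0.18 in PC3 (adjusted p = 0.0334). For 38241_at it was 0.65 ± 0.15 in 786-O (adjusted p = 0.0256) and 0.92 ± 0.15 in PC3 (adjusted p = 0.0048). Without replicate 2 of co-cultured 786-O the 786-O value of 204821_at was 0.58 ± 0.16 (limma adjusted p = 0.04515). That of 38241_at was 0.52 ± 0.14 (limma adjusted p = 0.0409). Both probe sets correlated with each other across the 12 arrays with a Pearson r of 0.96, a description of arrays that share groups and normalization.

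The probe set shared by BTN3A2 and BTN3A3, 204820_s_at, had signals of 2445, 3222 and 2400 in co-cultured 786-O, against 1936, 1883 and 1747 in 786-O alone. In PC3 they were 2643, 2587 and 2763 in co-culture, against 1561, 1258 and 1602 alone. It cannot be assigned to 1 gene, and both co-cultures lay above both groups grown alone. The log2 fold change was 0.52 ± 0.12 in 786-O (SE, n = 3 per group, adjusted p = 0.0268) and 0.86 ± 0.12 in PC3 (adjusted p = 0.00181). Without replicate 2 of co-cultured 786-O the 786-O value was 0.39 ± 0.10 (limma adjusted p = 0.0331).

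**Figure D2:**
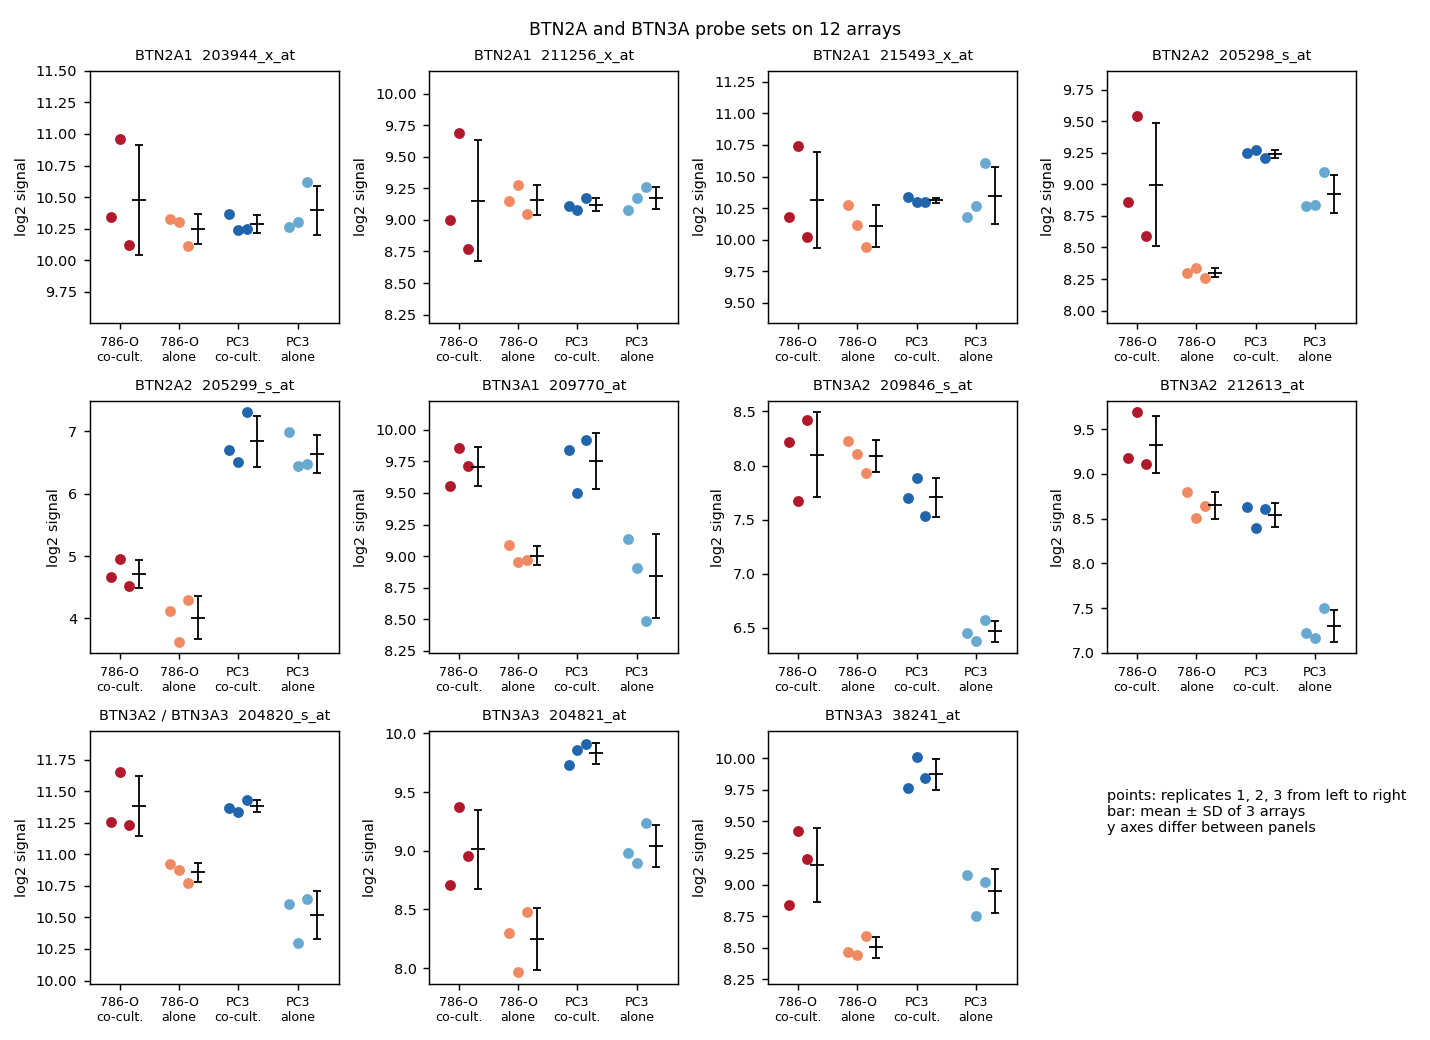
Log2 signal of the 11 tested butyrophilin probe sets, with the 3 arrays of each group as points and the mean ± SD as bars; the panels have their own axes. In 5 of 6 BTN3A panels both co-culture groups lie above the same line grown alone; in the sixth, 209846_s_at, the 786-O groups overlap, and the 3 BTN2A1 panels show overlap throughout between co-culture and alone.

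The 786-O calls were close to the threshold. Of the members, 0 passed without replicate 1 of 786-O alone (7 had an unadjusted limma p under 0.05), 0 without replicate 2 (6 unadjusted) and 1, 204821_at, without replicate 3. The call of 212613_at was also lost without replicate 1 or 3 of co-cultured PC3 or replicate 2 of PC3 alone (adjusted p up to 0.0545). No member passed without the filter on dim probe sets (the 5 adjusted p-values were then 0.0557 to 0.0715) or with only the 6 arrays of 786-O in the fit, and in both settings 7 had an unadjusted p under 0.05. The fold changes themselves stayed positive for all 5 BTN3A probe sets called in 786-O, between 0.39 and 0.92 with any single array left out, and 5 members passed without replicate 2 of co-cultured 786-O, where BTN3A1 dropped out (0.63 ± 0.18, adjusted p = 0.0524) and BTN2A2 came in.

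In PC3 the calls of 4 of the 6 probe sets (204820_s_at, 209846_s_at, 212613_at and 38241_at) held with any single array left out. That of BTN3A1 was lost without replicate 1 of co-cultured PC3 (adjusted p = 0.0508). That of 204821_at was lost in 7 of 12 omissions, those of any PC3 array or of replicate 1 of 786-O alone, with adjusted p up to 0.133.

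**Figure D3:**
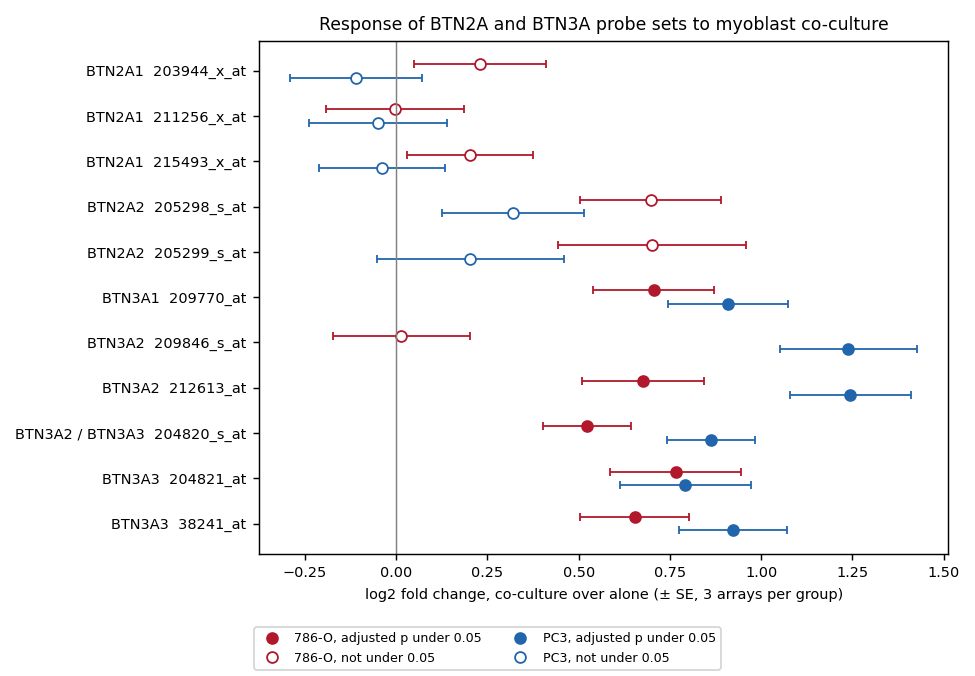
Log2 fold change, co-culture over alone, with its SE for each tested probe set in 786-O (red) and PC3 (blue); filled points passed the test at an adjusted p under 0.05. The 6 BTN3A probe sets of PC3 lie at 0.79 to 1.24 and 5 of the 6 of 786-O at 0.52 to 0.77, while the BTN2A1 points lie between -0.11 and 0.23.

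BTN2A2, the T cell inhibitor, was higher in co-cultured 786-O on every array without passing the test. Signals of 205298_s_at were 465, 743 and 386 in co-cultured 786-O, against 315, 323 and 307 in 786-O alone, or 0.70 ± 0.19 as log2 fold change (SE, adjusted p = 0.0508). It passed with replicate 2 of co-cultured 786-O left out (0.43 ± 0.11, adjusted p = 0.0414) and with replicate 3 left out (0.90 ± 0.17, adjusted p = 0.012). In PC3 the signals were 607, 619 and 591 in co-culture, against 455, 457 and 548 alone, without overlap, and the log2 fold change of 0.32 ± 0.19 did not pass (adjusted p = 0.497, 95% interval -0.11 to 0.75).

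The dimmer BTN2A2 probe set, 205299_s_at, had signals of 25.3, 31.1 and 23.0 in co-cultured 786-O, against 17.4, 12.3 and 19.7 in 786-O alone (log2 fold change 0.70 ± 0.26, adjusted p = 0.115, and 0.39 on the scale of log2(signal + 16), as the signals are low). In PC3 they were 104, 91.0 and 158 in co-culture, against 127, 86.9 and 88.4 alone (0.20 ± 0.26, adjusted p = 0.825). Without replicate 2 of co-cultured 786-O the 786-O value was 0.58 ± 0.28 (limma adjusted p = 0.2265). In 786-O the 2 groups did not overlap and in PC3 they did. Groups that do not overlap were common here: in each line 7 of the 11 members were higher in co-culture without overlap, as were 15.1% of all tested probe sets in 786-O and 11.1% in PC3.

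BTN2A1, which engages the gamma-delta receptor, did not pass in either line with any of its 3 probe sets, and 0 of the 3 had an unadjusted limma p under 0.05. The brightest, 203944_x_at, had signals of 1300, 1993 and 1114 in co-cultured 786-O, against 1281, 1266 and 1105 in 786-O alone, and 1323, 1212 and 1212 in co-cultured PC3, against 1230, 1262 and 1570 in PC3 alone. Signals of 215493_x_at were 1161, 1709 and 1040 in co-cultured 786-O against 1240, 1111 and 985 in 786-O alone, and 1294, 1258 and 1259 in co-cultured PC3 against 1157, 1229 and 1560 in PC3 alone. Groups overlapped in both lines, and replicate 2 of co-cultured 786-O was the highest of all 12 arrays in each probe set.

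The third BTN2A1 probe set, 211256_x_at, had signals of 513, 826 and 436 in co-cultured 786-O against 568, 620 and 528 in 786-O alone, and 553, 541 and 578 in co-cultured PC3 against 541, 578 and 612 in PC3 alone. The 786-O log2 fold changes were 0.23 ± 0.18 for 203944_x_at (95% interval -0.17 to 0.63), 0.20 ± 0.17 for 215493_x_at (-0.18 to 0.58) and 0.00 ± 0.19 for 211256_x_at (-0.42 to 0.41). Without replicate 2 of co-cultured 786-O they were -0.01, -0.01 and -0.27. In PC3 they were -0.11 (95% interval -0.51 to 0.29), -0.04 (-0.42 to 0.34) and -0.05 (-0.46 to 0.37). The suffix of these 3 identifiers marks probes that can match related sequences, so signal from other transcripts was not separated.

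The other 3 probe sets of the family were near the floor and were not tested: 1564684_at of BTN2A2 reached at most 4.25, 244063_at of BTN2A1 at most 4.84 and 207485_x_at of BTN3A1 at most 6.75, in replicate 2 of 786-O alone.

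The lines were then compared in how they responded. Of the 11 members 1 passed the test of the difference of the responses, 786-O minus PC3, where 4.09% of all probe sets did. That was 209846_s_at of BTN3A2, at -1.22 ± 0.27 on the log2 scale (SE, adjusted p = 0.0295), which moved between -1.39 and -1.01 with single arrays left out and lost its call in 7 of 12 omissions, each of an array of 786-O alone, co-cultured PC3 or PC3 alone (adjusted p up to 0.0782). The other BTN3A2 probe set, 212613_at, differed in the same direction by -0.57 ± 0.24 and did not pass (adjusted p = 0.208), but passed without replicate 2 of co-cultured 786-O (-0.75 ± 0.18, adjusted p = 0.035), as did the shared 204820_s_at (-0.48 ± 0.13, adjusted p = 0.0492). For BTN3A1 the difference was -0.20 ± 0.23 (95% interval -0.72 to 0.31). For BTN3A3 it was -0.03 ± 0.25 with 204821_at (-0.59 to 0.53) and -0.27 ± 0.21 with 38241_at (-0.73 to 0.19). BTN2A2 differed by 0.38 ± 0.27 with 205298_s_at (-0.23 to 0.98) and 0.50 ± 0.36 with 205299_s_at (-0.30 to 1.30).

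**Figure D4:**
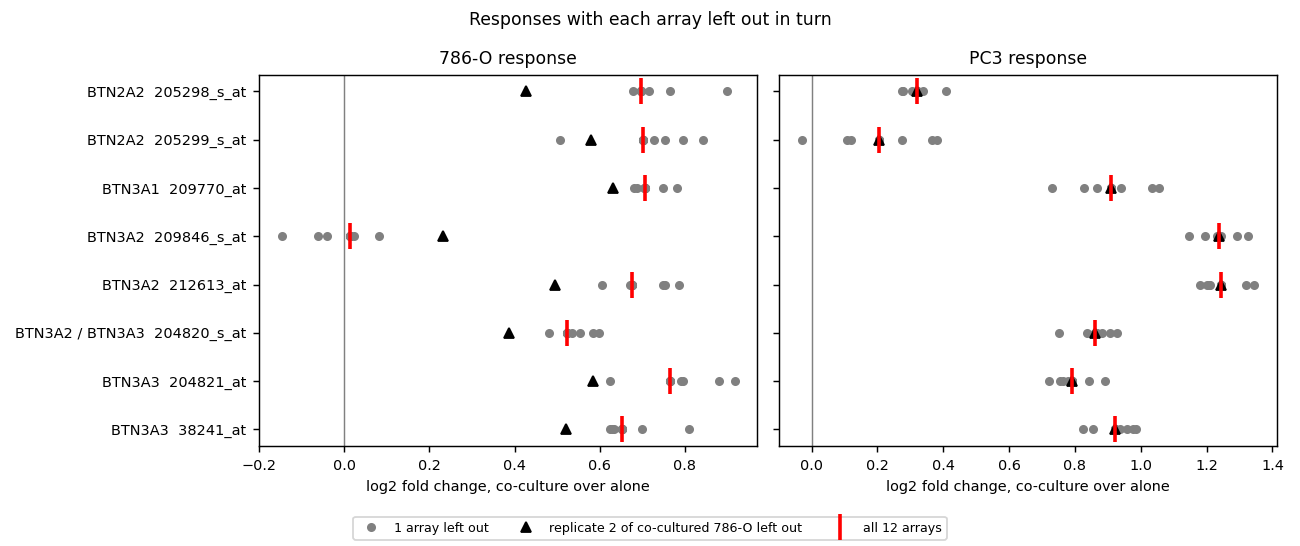
Log2 fold changes, co-culture over alone, of the BTN3A and BTN2A2 probe sets in 786-O and PC3 with all 12 arrays (red bars), with each single array left out (grey points) and without replicate 2 of co-cultured 786-O (black triangles). Without that array the 786-O value of 209846_s_at is 0.23 instead of 0.01, and the other 786-O values are smaller; the PC3 values do not use it.

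The standing levels of the genes differed between 786-O and PC3 in both directions. In cells grown alone 7 of 11 members passed, where 68.1% of all probe sets did: BTN3A2 was higher in 786-O, with log2 differences, 786-O minus PC3, of 1.62 ± 0.19 for 209846_s_at (adjusted p = 1.17e-05) and 1.35 ± 0.17 for 212613_at (adjusted p = 2.02e-05). The shared BTN3A2 and BTN3A3 probe set 204820_s_at was higher by 0.34 ± 0.12 (adjusted p = 0.0259). BTN3A3 was lower in 786-O, by -0.79 ± 0.18 with 204821_at and -0.45 ± 0.15 with 38241_at, and so was BTN2A2, by -2.62 ± 0.26 with 205299_s_at and -0.62 ± 0.19 with 205298_s_at (adjusted p = 0.0139). The 786-O signals of 205299_s_at were low, and on the scale of log2(signal + 16) its difference was -1.84, still past the test. BTN3A1 and BTN2A1 did not pass. Calls of 38241_at, 204820_s_at and 205298_s_at were lost in 4, 3 and 1 of the 12 omissions, each of an array grown alone (adjusted p up to 0.116).

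In co-culture 4 of 11 members passed, where 70.7% of all probe sets did. BTN3A2 was still higher in 786-O with 212613_at (0.78 ± 0.17, adjusted p = 0.00135), but its other probe set, 209846_s_at, did not pass (0.40 ± 0.19, adjusted p = 0.0786). BTN3A3 was lower in 786-O by -0.82 ± 0.18 with 204821_at and -0.72 ± 0.15 with 38241_at, and BTN2A2 by -2.12 ± 0.26 with 205299_s_at. Without replicate 2 of co-cultured 786-O, 209846_s_at (0.61 ± 0.14, adjusted p = 0.00277) and 205298_s_at of BTN2A2 (-0.52 ± 0.11, adjusted p = 0.0016) passed as well. The share of members that passed was not above that of the array in either comparison of the lines.

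The order of the 4 groups by mean level differed between BTN3A1, BTN3A2 and BTN3A3. For BTN3A2 with 212613_at the order was co-cultured 786-O, 786-O alone, co-cultured PC3 and PC3 alone, with overlap of the second and the third. For BTN3A3 with 38241_at it was co-cultured PC3, co-cultured 786-O, PC3 alone and 786-O alone, also with overlap of the second and the third, and BTN2A2 had the same order with 205298_s_at. With 204821_at of BTN3A3 the second and the third, which overlapped, changed places. For BTN3A1 both co-cultures stood above both groups grown alone, and within each pair the lines overlapped. The second BTN2A2 probe set, 205299_s_at, had the same order as 204821_at: both PC3 groups, which overlapped, stood above co-cultured 786-O, and 786-O alone was the lowest.

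Across the 12 arrays, Pearson r between probe sets of the same gene was 0.85 for the 2 of BTN3A2, 0.67 for those of BTN2A2 and 0.78 to 0.92 for those of BTN2A1. Between genes, BTN3A1 correlated with the shared probe set 204820_s_at (r = 0.87), while BTN3A2 (212613_at) and BTN3A3 (204821_at) did not correlate (r = -0.004). BTN2A1 (203944_x_at) and BTN3A1 had r = 0.07. Both BTN2A2 probe sets correlated more with 204821_at of BTN3A3 than with each other (r = 0.88 for 205298_s_at and 0.80 for 205299_s_at). These values describe 12 arrays in 4 groups, which share the groups and their normalization. Replicate 2 of co-cultured 786-O, the array with the high ACTB ratio, was the highest of all 12 arrays in each tested BTN2A1 probe set. In every other tested member but 209846_s_at it was the highest of its group. The weight of that array in these correlations was not tested.

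The genes outside the family whose log2 signal was most like that of a member over the 12 arrays were found by Pearson r. Among the 5 nearest for BTN3A1 were ITPR1 (r = 0.95), CD24, BHLHE40, STC1 and GBP1 (r = 0.89 for GBP1). Among those for BTN3A2 (212613_at) were BAZ2B (0.97), ZBTB38, DZIP3 and TRMT11, and for BTN3A3 (38241_at) PTHLH (0.95), FHOD3, LOC285628, TNIP1 and PRPF40B. Among those for BTN2A2 (205298_s_at) were QARS1 (0.97), RNF123, NCKIPSD, SOX12 and ADCK2, and for BTN2A1 (203944_x_at) ZNF114 (0.95), H2AX, TMEM67 and PPP6R2. The signal of 203944_x_at was 1993 in replicate 2 of co-cultured 786-O, the array with the high ACTB ratio, and at most 1570 on any other array. The weight of that array in these r values was not tested. No gene was among the 5 nearest of 2 members.

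Other genes of the phosphoantigen system were read as lists. The counts of this and the following lists stand beside the shares of all tested probe sets. In 786-O 4.87% were higher and 3.2% lower, and in PC3 1.98% were higher and 2% lower. Of 15 probe sets of the mevalonate pathway, which makes the phosphoantigens bound by BTN3A1, 0 passed in either line, and 2 in 786-O and 0 in PC3 had an unadjusted limma p under 0.05. Their median log2 fold change was 0.01 in 786-O and -0.02 in PC3. Of 19 probe sets of partners and regulators of the BTN2A and BTN3A complex, 0 were higher and 1 lower in 786-O and 2 were higher and 0 lower in PC3.

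The 2 of PC3 were both of ABCA1, a lipid exporter that also exports isopentenyl pyrophosphate: log2 fold changes for 203504_s_at were 0.10 ± 0.24 in 786-O and 1.58 ± 0.24 in PC3 (adjusted p = 0.00311), and for 203505_at 0.17 ± 0.13 in 786-O and 1.13 ± 0.13 in PC3 (adjusted p = 0.00061). The PC3 signals were low: 203504_s_at averaged 6.31 on the log2 scale in co-cultured PC3 and 4.73 in PC3 alone, and 203505_at 6.02 and 4.89. In 786-O the averages were 12.09 in co-culture and 12.0 alone for 203504_s_at, and 10.56 and 10.39 for 203505_at. The difference of the responses, 786-O minus PC3, passed for both (-1.48 ± 0.34, adjusted p = 0.0354, and -0.97 ± 0.19, adjusted p = 0.0193). The 1 of 786-O was RHOB, a small GTPase that binds BTN3A1 (-0.16 ± 0.04, adjusted p = 0.0239).

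Of 22 probe sets of regulators of class I and interferon-gamma genes 3 were higher and 0 lower in 786-O, and 1 was higher and 0 lower in PC3, with medians of 0.15 in each line. NLRC5 (226474_at) averaged 6.85 on the log2 scale in co-cultured 786-O and 4.31 in 786-O alone, against 2.10 in co-cultured PC3 and 2.09 in PC3 alone, near the lowest values on the array. Its log2 fold change was 2.54 ± 0.28 in 786-O (adjusted p = 0.000808) and 0.00 ± 0.28 in PC3. The part of NLRC5 in the BTN3A responses of either line was not tested. RFXAP, a subunit of the X box binding complex, passed in PC3 (229431_at, 0.61 ± 0.13, adjusted p = 0.0269), with 0.18 ± 0.13 in 786-O. RFX5 (202963_at, 0.16 ± 0.04, adjusted p = 0.0457) and STAT2 (225636_at, 0.22 ± 0.06, adjusted p = 0.0478) passed in 786-O, with 0.15 ± 0.04 and 0.12 ± 0.06 in PC3. None of these passed the test of the difference of the responses (limma adjusted p = 0.228, 0.929 and 0.523). The other tested RFX5 probe set, 202964_s_at, had -0.20 ± 0.21 in 786-O and 0.28 ± 0.21 in PC3, and did not pass.

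Of 30 probe sets of class I presentation 4 were higher and 0 lower in 786-O and 1 was higher and 0 lower in PC3. Across the array 4.87% of tested probe sets were higher in 786-O and 1.98% in PC3. PSMB9, an immunoproteasome subunit (204279_at), was the one that rose in both, by 0.72 ± 0.15 in 786-O (adjusted p = 0.0187) and 0.94 ± 0.15 in PC3 (adjusted p = 0.00472). TAP1, a peptide transporter (202307_s_at), rose in 786-O by 0.73 ± 0.10 (adjusted p = 0.0023), and its PC3 value was 0.22 ± 0.10 (adjusted p = 0.306). The medians of the list were 0.11 in 786-O and 0.06 in PC3.

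Of 20 probe sets of other ligands of gamma-delta T and NK cells 2 were higher in 786-O and 3 in PC3, and 0 were lower; all of them were of ICAM1, an adhesion molecule that T cells bind, with 202638_s_at at 0.52 ± 0.09 in 786-O (adjusted p = 0.00667) and 0.82 ± 0.09 in PC3 (adjusted p = 0.000228). Of the other butyrophilins 2 of 14 probe sets were bright enough to be tested, and neither passed: ERMAP (219905_at) had 0.52 ± 0.15 in 786-O (adjusted p = 0.0612) and -0.23 ± 0.15 in PC3, and BTNL9 (228434_at) 0.49 ± 0.37 in 786-O and 0.16 ± 0.37 in PC3.

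Genes beside the butyrophilin cluster on chromosome 6 had no call. With 8.07% of all tested probe sets passing in 786-O and 3.97% in PC3, this says little for 5 probe sets. Of 5 probe sets of HMGN4, ABT1 and ZNF322, 3 of the 6 nearest protein-coding neighbours, 0 passed in either line and 0 had an unadjusted limma p under 0.05. Their median was -0.03 in 786-O and 0.09 in PC3. The largest value was that of ABT1 in 786-O (218405_at, -0.27 ± 0.14).

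The authors' deposited table gave the same directions for the called BTN3A probe sets. It listed sizes of fold change of 1.64 in 786-O and 1.86 in PC3 for BTN3A1 (209770_at), with unadjusted p-values of 0.00357 and 0.0131. For BTN3A2 (212613_at) the authors' deposited table listed 1.62 in 786-O and 2.36 in PC3 (unadjusted p = 0.0508 and 0.000667), and for BTN2A2 (205298_s_at) 1.69 in 786-O and 1.24 in PC3 (unadjusted p = 0.117 and 0.0195). The sign of the authors' score was negative where the first group named was higher, in 54613 of 54613 probe sets other than controls.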

How the data were processed

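Total RNA of 12 samples was hybridised to HG-U133 Plus 2 arrays, 3 in each of 4 groups. The authors deposited 1 linear signal intensity for each probe set on each array. Per the submitters' processing notes MAS5 was used, and its version is not given in the sources used here. The background model and the normalization behind the values are not known. Dim probe sets lay near a common floor, with 1564684_at at 4.20 to 4.25 on all 12 arrays. The authors' deposited table also holds, per pair of groups, a signed fold score (a ratio) with its unadjusted p-value. The members, gene lists and tests were chosen with earlier results of these data known.

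Signals were taken to log2 with no constant added. A probe set was tested if it was no control and its mean log2 signal exceeded the median of 2.65, which left 27306. limma 3.58.1 in R 4.3.3 (lmFit, and eBayes with an intensity trend) was fitted to all 12 arrays. Each SE rests on a spread estimate per probe set that all groups share, and is not the spread of the groups compared. Array weights estimated per group were 0.3475 for co-cultured 786-O, 1.905 for 786-O alone, 1.317 for co-cultured PC3 and 1.147 for PC3 alone. A lower weight means more spread, so co-cultured 786-O was the most variable group. P-values are two-sided, Benjamini-Hochberg adjusted over all 27306 and called under 0.05, which is what "passed" means. Named are all members, up to 4 genes of each list with the smallest p, the 5 nearest genes by Pearson r and the measured neighbours. Some genes that this rule takes in are not reported here. The number of arrays limits the precision. Promoters were read with Python 3.11.15 and aligned with Biopython 1.88, and figures drawn with matplotlib 3.10.9.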

Additional observations from a re-analysis of the deposited data

Results flagged for a closer look

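The 2 lines differed in the response of 1 of the 11 tested butyrophilin probe sets by the test of the difference itself. Across the array 4.09% of all tested probe sets passed that test, so 1 call among 11 is little beyond that share. For 209846_s_at of BTN3A2 the log2 fold change, co-culture over alone, was 0.01 ± 0.19 in 786-O and 1.24 ± 0.19 in PC3 (SE, n = 3 per group), and the difference, 786-O minus PC3, was -1.22 ± 0.27 (limma adjusted p = 0.0295). Leaving out the array with the high 3' to 5' ratio for ACTB, the second repeat of co-cultured 786-O, gave -1.01 ± 0.19 (adjusted p = 0.0134). The call was lost in 7 of the 12 omissions of a single array (adjusted p up to 0.0782), with the replicate block (adjusted p = 0.0609) and without the filter on dim probe sets (adjusted p = 0.0611). The other BTN3A2 probe set, 212613_at, did not pass (-0.57 ± 0.24, adjusted p = 0.208).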

How the results depend on the processing

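With all arrays 5 member probe sets passed in the 786-O response, 6 in the PC3 response, 1 in the difference of the responses, 7 between the lines alone and 4 between them in co-culture. Quantile normalization, centring on the array median, log2(signal + 16), no intensity trend and robust empirical Bayes gave these same 5 counts. Counts that are not given for a setting below changed by at most 1.5-fold. Without the filter on dim probe sets 0 passed in 786-O (7 had an unadjusted limma p under 0.05) and 0 in the difference (2 unadjusted). With the filter at the 75th percentile, which left 6 members, the counts were 3, 3, 0 (0 unadjusted), 2 and 1. Array weights per group gave 0 in 786-O (6 unadjusted), and so did only the 6 arrays compared (7 unadjusted). The ACTB ratio as a covariate gave 3 in the difference and 6 in co-culture. By gene, the brightest probe set gave 3 in PC3, 0 in the difference (1 unadjusted), 3 alone and 2 in co-culture, and the mean of probe sets 3 in PC3 and 3 alone. Without _s_at and _x_at probe sets, 0 passed in the difference (1 unadjusted) and 3 alone. At an adjusted p under 0.01 the counts were 0 in 786-O, 0 in the difference and 4 alone. Asking for at least 1.5-fold besides an adjusted p under 0.05 gave 4 in 786-O, 6 in PC3, 1 in the difference, 5 alone and 4 in co-culture. With the repeat number as a replicate block 2 passed in 786-O and 0 in the difference (1 unadjusted). Deviations of same-numbered arrays correlated at -0.17 to 0.12, within the range of -0.25 to 0.195 for arrays with different numbers. No pairing by number was seen, but with so few arrays per group these correlations cannot exclude it. With each array left out in turn, 0 to 6 passed in 786-O, 4 to 6 in PC3, 0 to 3 in the difference, 5 to 7 alone and 4 to 6 in co-culture. The difference had 0 without any array of 786-O alone, without replicates 1 or 2 of co-cultured PC3 and without replicates 2 or 3 of PC3 alone, and 3 without replicate 2 of co-cultured 786-O. The cause of these changes was not tested, except that stricter filters and fits by gene hold fewer members. No call changed direction. Over all probe sets, the calls in 786-O ranged from 149 to 4381 (2203 with all arrays), in PC3 from 508 to 2265 (1085) and in the difference from 274 to 2857 (1118).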
